A study of Rattus norvegicus with 15 samples.

Results

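The aggrecan and hyaluronan network was followed here as 9 genes: the matrix genes Acan, Hapln1 and Vcan, the hyaluronan synthases Has1, Has2 and Has3, the receptor Cd44 and the hyaluronidases Hyal1 and Hyal2. They were chosen by name among the 18166 genes that had a probe set with a single gene symbol. Each of the 9 had exactly 1 such probe set, so no choice between probe sets was needed, and no filter on low signal was applied. The material was knee articular cartilage of Sprague-Dawley rats, taken from the right knee of each animal separately, frozen and ground, and its total RNA was hybridised to Affymetrix RaGene 2.0 ST arrays. The study compared 5 life stages with 3 arrays each, while its design text speaks of 7 time points without naming others. T0 is the newborn stage, T1 is youth and T2 is adult, while the elderly animals were split into T3, early-stage, and T4, latter-stage. No treatment, transgene or surgery is named in the labels for any stage, and the sources used here give neither the age in days or months nor the sex of the animals, nor an array batch. Arrays of a stage are labelled biological replicates, and the p-values rest on the spread between such samples.

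Hyaluronan is a long unsulphated sugar chain that the HAS enzymes extrude at the cell surface. Aggrecan, the large proteoglycan of cartilage, binds hyaluronan through its head domain, link protein (Hapln1) locks that bond, and the resulting aggregates hold the water that lets cartilage resist compression. Versican occupies the same place in many embryonic and soft tissues, CD44 anchors and takes up hyaluronan at the chondrocyte surface, and the hyaluronidases cut the chain.

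Levels are the deposited log2 signals, on which a difference of 1 is a doubling. Levels of different probe sets are not set against each other. Differences are given with limma's standard error (SE) and Benjamini-Hochberg adjusted p over all 36685 probe sets, and a difference was called at an adjusted p under 0.05.

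The T3 and T4 arrays stood apart from the others. The standard deviation of log2 signals over the probe sets of an array lay between 2.00 and 2.05 on the 9 arrays of T0 to T2, between 1.83 and 1.97 at T3, and between 1.48 and 1.71 at T4. The mean correlation of an array with the other arrays of its stage was 0.977 at T0 and 0.839 at T4, where replicate 1 had the narrowest signal range of all 15 arrays. Of 7 measured cartilage markers, Col2a1 (type II collagen) was at 12.36 ± 0.06 (SD, n = 3) at T0 and 8.0 ± 1.47 at T4, and the mean over the markers went from 9.98 to 6.44. Sox9, the chondrocyte regulator, lay between 4.93 and 5.74 on every array, around the array medians of 4.94 to 5.28, so its level is hard to read. Prg4, another of the 7, had means of 9.18 at T0, 10.96 at T2 and 7.07 at T4. Markers of other tissues were also present: the mean of 3 erythroid markers was 5.63 at T0 and 11.34 at T1, that of 7 neutrophil and myeloid markers 5.73 and 9.18, and that of 5 skeletal muscle markers 11.26 and 9.26. T1 replicate 3 is named adult in its source name and youth in its other labels, and it was kept in youth. It correlated with the rest of T1 at a mean of 0.977 and with T2 at 0.963.

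**Figure D1:**
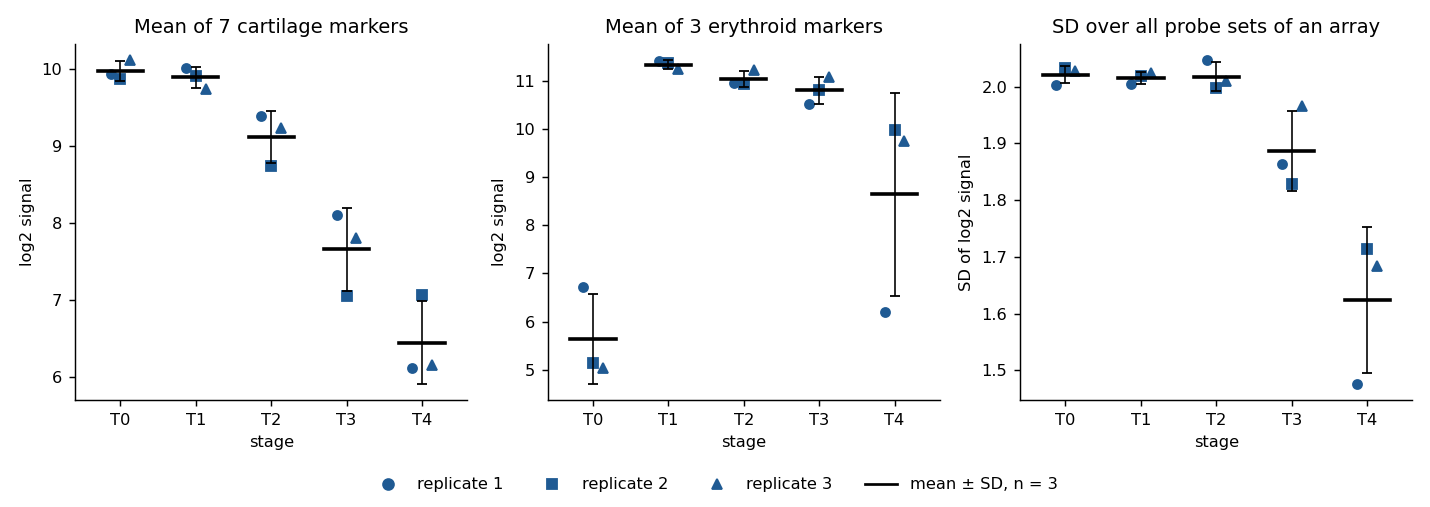
Mean log2 signal of 7 cartilage markers and of 3 erythroid markers, and standard deviation of log2 signal over all probe sets, for each of 15 arrays by stage. Points are arrays, and bars are the mean ± SD of 3 arrays. Cartilage markers fall from 9.98 at T0 to 6.44 at T4, erythroid markers are lowest at T0, and the signal range is narrowest at T4.

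Of the 9 genes, 7 differed between stages: Acan, Hapln1, Vcan, Has2, Cd44, Hyal1 and Hyal2 (limma's moderated F test, adjusted p from 1.25e-07 for Hapln1 to 0.0248 for Cd44). Of all probe sets, 60.1% passed the same test, so to pass it was common on these arrays. Has1 (adjusted p = 0.0733) and Has3 (adjusted p = 0.252) did not pass it. Hapln1 ranked 46 of 36685 probe sets by the p of this test.

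**Figure D2:**
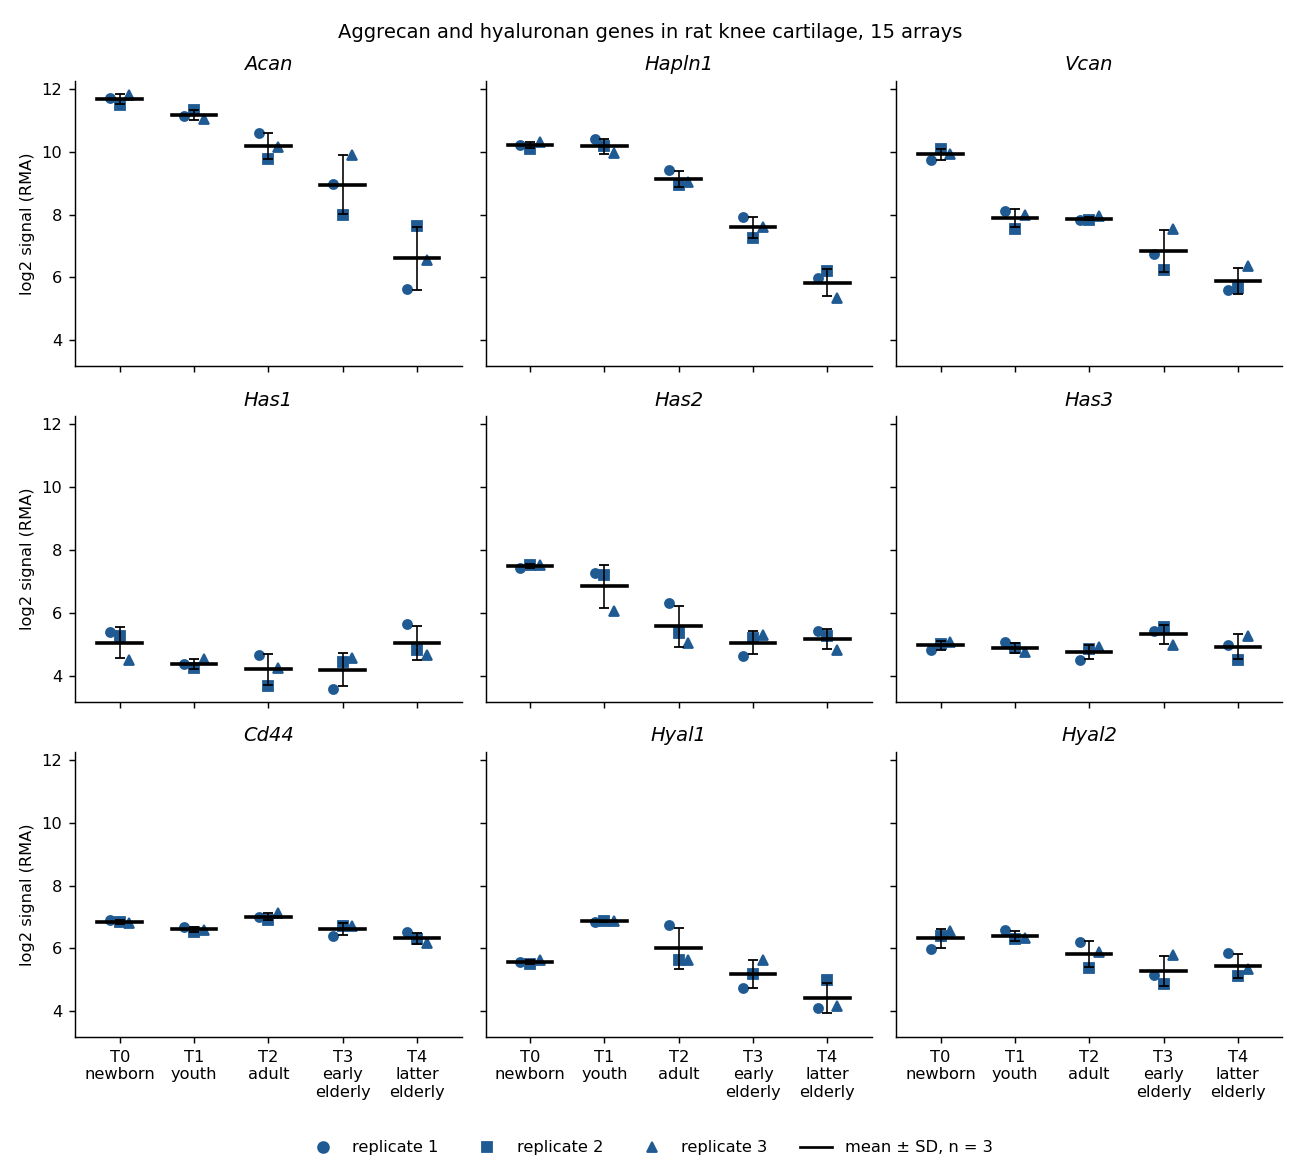
Log2 signal of the 9 genes on each of 15 arrays, with the mean ± SD of the 3 arrays of a stage. Acan and Hapln1 descend from T0 to T4, Vcan takes its first step down already at T1, Has2 is high at T0 and T1, Hyal1 peaks at T1, and Has1 and Has3 show no stage pair that passes the test.

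Acan encodes the aggrecan core protein. Its 3 arrays read 11.71, 11.50 and 11.82 at T0, 11.14, 11.33 and 11.04 at T1, and 10.60, 9.77 and 10.15 at T2. These 3 sets of arrays did not overlap, and each lay below the one before. The arrays then read 8.96, 8.0 and 9.88 at T3 and 5.64, 7.64 and 6.55 at T4, with a wider spread within each stage. T3 replicate 3 reached into the T2 range, and every T4 array lay below every T3 array. The stage means were 11.68 ± 0.16, 11.17 ± 0.15, 10.17 ± 0.41, 8.95 ± 0.94 and 6.61 ± 1.00 (SD, n = 3 each). Only the last of the 4 successive steps passed the test: T4 was 2.34 log2 units (SE 0.47) below T3, a 5.06-fold difference (limma adjusted p = 0.00223). That step was not called with only the T3 and T4 arrays fitted (limma adjusted p = 0.0533). From T2 to T4 Acan fell by 3.56 on the log2 scale, or 11.8-fold (limma adjusted p = 6.68e-05), and from T0 to T4 it fell by 5.07, or 33.6-fold (limma adjusted p = 2.53e-06). The fall of 1.51 from T0 to T2 lay at the threshold (limma adjusted p = 0.04995). That call ended without any 1 of 11 arrays (each array of T0, T1 and T2, T3 replicate 1 and T4 replicate 3, adjusted p from 0.0552 to 0.192). With cyclic loess between arrays, the fall from T3 to T4 was 0.53 (difference -0.53, adjusted p = 0.308) and that from T2 to T4 was 1.50 (difference -1.50, adjusted p = 0.00694). The span from T0 to T4 contains these steps, and its fold with cyclic loess is not given. The cartilage marker mean moved with Acan at T2, T3 and T4 (9.12, 7.66 and 6.44), and its part in the result was not tested. In whole tissue, fewer chondrocytes and less RNA per chondrocyte cannot be told apart.

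Hapln1, the link protein gene, overlapped between newborn and youth. It read 10.22, 10.10 and 10.31 at T0 and 10.40, 10.17 and 9.95 at T1. The difference was -0.04, with a 95% interval from -0.57 to 0.50. It read 9.42, 8.95 and 9.03 at T2, 7.92, 7.24 and 7.62 at T3, and 5.97, 6.19 and 5.35 at T4. From T1 on, every array of a stage lay below every array of the stage before. Each later step was downward: -1.04 from T1 to T2 (SE 0.25, adjusted p = 0.0718), -1.54 from T2 to T3 (adjusted p = 0.038) and -1.75 from T3 to T4 (adjusted p = 0.000361, limma throughout). From T2 to T4 Hapln1 fell 9.81-fold (limma adjusted p = 5.19e-06) and from T0 to T4 20.7-fold (adjusted p = 5.06e-08). Hapln1 was the only one of the 9 genes called between T2 and T3, a comparison in which 0.15% of probe sets were called. That call ended without any 1 of 10 arrays (each T0 and T1 array, T2 replicates 1 and 3, T3 replicates 1 and 2, adjusted p from 0.0503 to 0.143). The step from T1 to T2 passed without T4 replicate 1 (adjusted p = 0.0479) or T4 replicate 3 (adjusted p = 0.047). Cyclic loess gave -0.20 from T3 to T4 (adjusted p = 0.735) and -1.44 from T2 to T4 (adjusted p = 0.0124). From T0 to T2 it gave -1.16 (adjusted p = 0.0764). The fold from T0 to T4 is not given with cyclic loess.

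Vcan, the versican gene, had another course. It read 9.74, 10.09 and 9.94 at T0 and 8.10, 7.56 and 7.98 at T1. All newborn arrays were above all youth arrays, and the fall of 2.04 on the log2 scale (SE 0.30) was 4.12-fold (limma adjusted p = 0.000487). The T2 arrays read 7.84, 7.84 and 7.94, and lay within the T1 range. The difference from T1 to T2 was 0.00 (95% interval from -0.65 to 0.64). Later arrays read 6.75, 6.24 and 7.54 at T3 and 5.61, 5.67 and 6.38 at T4, so these stages overlapped. The step from T2 to T3 was -1.03 (limma adjusted p = 0.101), and the step from T3 to T4 was -0.95 (limma adjusted p = 0.0207). The second call ended without T3 replicate 3 (-0.61, adjusted p = 0.0971), T4 replicate 1 (-0.82, adjusted p = 0.0713) or T4 replicate 2 (-0.85, adjusted p = 0.0529), and cyclic loess turned it to 0.28 (adjusted p = 0.47). From T2 to T4 Vcan fell by 1.99 (limma adjusted p = 0.000148), against 0.45 with cyclic loess (difference -0.45, adjusted p = 0.212). From T0 to T4 Vcan fell 16.4-fold (limma adjusted p = 4.75e-07). That span contains the part that cyclic loess shrank, and its fold with cyclic loess is not given. Beside the step from T0 to T1, all 5 skeletal muscle markers fell, as did 1 of 3 tendon markers, whose means went from 11.26 to 9.26 and from 7.55 to 6.05. Their part in the versican result was not tested.

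Hapln1 and Vcan are neighbouring coding genes on rat chromosome 2, and Acan lies on chromosome 1 beside Hapln3, another link protein gene. The neighbours Hapln1 and Vcan differed in their step from T0 to T1 (-0.04 and -2.04). The 250 bases before the start of Acan, Hapln1 and Vcan are shown (RefSeq, GRCr8, 5′ to 3′ in the direction of the gene). Capitals mark GGGCGG (the GC box, or CCGCCC on the other strand) and ACAAAG (letters found in SOX family sites, or CTTTGT on the other strand). The Acan stretch is chr1:142390701-142390950 on the plus strand, that of Hapln1 is chr2:22366717-22366966 on the plus strand, and that of Vcan, the first of 2 entries, is chr2:22595956-22596205 on the minus strand.
Acan: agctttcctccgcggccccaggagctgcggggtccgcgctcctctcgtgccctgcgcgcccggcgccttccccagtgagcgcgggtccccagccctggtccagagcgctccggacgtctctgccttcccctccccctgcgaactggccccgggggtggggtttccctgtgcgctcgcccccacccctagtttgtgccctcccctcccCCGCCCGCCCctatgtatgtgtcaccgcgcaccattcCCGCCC
Hapln1: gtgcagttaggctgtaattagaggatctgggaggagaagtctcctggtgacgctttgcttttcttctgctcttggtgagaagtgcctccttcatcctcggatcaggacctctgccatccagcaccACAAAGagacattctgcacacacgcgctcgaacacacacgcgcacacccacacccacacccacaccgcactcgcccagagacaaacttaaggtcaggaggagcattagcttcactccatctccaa
Vcan: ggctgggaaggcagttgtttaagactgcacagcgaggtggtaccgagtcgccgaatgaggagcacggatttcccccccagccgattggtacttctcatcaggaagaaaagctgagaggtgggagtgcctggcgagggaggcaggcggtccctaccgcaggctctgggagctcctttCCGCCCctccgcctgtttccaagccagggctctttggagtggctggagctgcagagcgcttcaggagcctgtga
The Acan stretch held 3 GC box matches, of which the first pair overlap at 43 to 34 bases before the start, and 73.6% of its bases were G or C, against a median of 52.0% over 27457 promoters. The Vcan stretch held 1 GC box match and 61.6% G or C. The Hapln1 stretch held none, had 54.0% G or C, and held ACAAAG once, at 125 to 120 bases before the start. Over all promoters of this length, 32.4% held GGGCGG and 16.0% held ACAAAG on either strand. TATAAA was searched too: it stood in none of the 7 genes with an entry and in 13.1% of all promoters. These matches describe letters and were not tested as sites.

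Differences of log2 signals within an array show whether a pair of genes changed unequally. Over T0, T1 and T2, Vcan minus Acan had stage means of -1.76, -3.29 and -2.30. The stages differed (exact permutation test over 9 arrays of the spread between stage means, p = 0.00714, adjusted over the 2 pairs with Acan 0.0143). This call ended without T1 replicate 3 (adjusted p = 0.0571, exact permutation). Hapln1 minus Acan moved less: it was -1.47 in the newborn, -1.0 in youth and -1.04 in the adult (exact permutation adjusted p = 0.0214). All 3 newborn arrays lay below all youth and adult arrays in that difference. It did not pass with quantile normalization (adjusted p = 0.111), over all 5 stages (adjusted p = 0.678), or without any T0 array, T1 replicate 3 or T2 replicate 3 (adjusted p from 0.0571 to 0.104), all by exact permutation. Hapln1 minus Vcan, a pair chosen after the values were seen, rose from 0.29 at T0 to 2.29 at T1 and was 1.26 at T2. Its exact permutation p of 0.00357 is the smallest that 1680 assignments allow (0.00952 adjusted over 4 pairs). Since the pair was picked from the same values, that p cannot serve as a test.

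**Figure D3:**
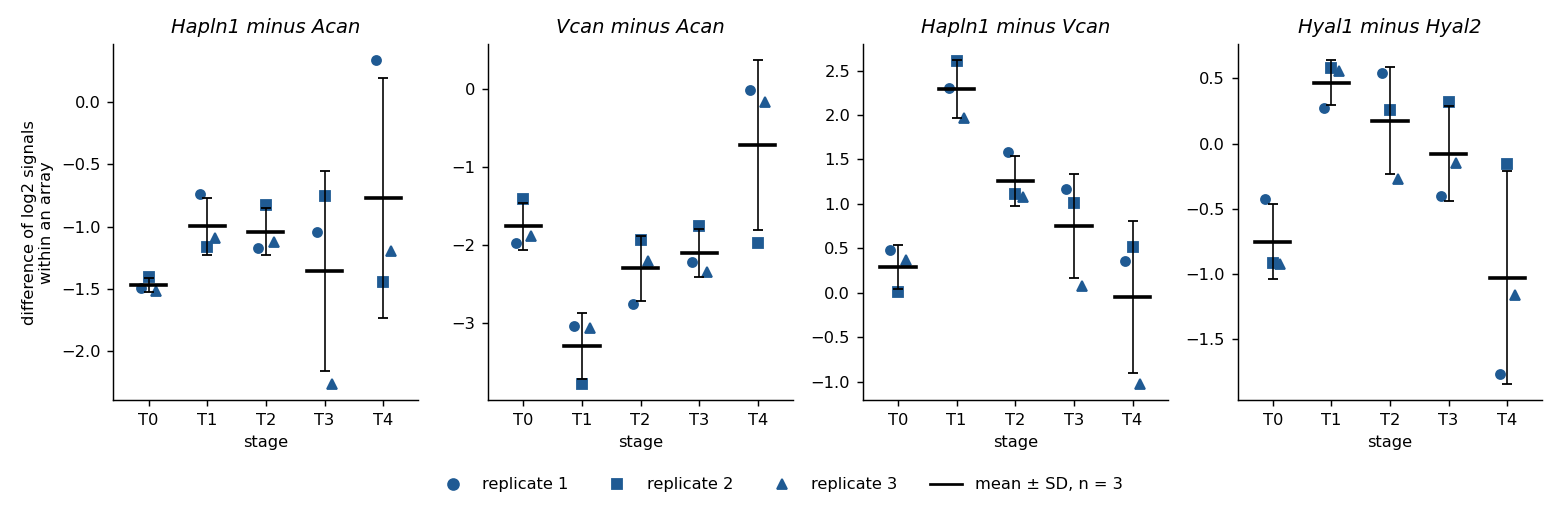
Difference of log2 signals of a pair of genes within each array, by stage. Points are arrays, bars are mean ± SD of 3 arrays, and each panel has its own axis. Hapln1 minus Vcan is near 0 at T0 and between 1.96 and 2.61 at T1, and Hyal1 minus Hyal2 is below 0 at T0 and above 0 at T1.

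Among the synthases, Has2 passed the test in 5 of 10 stage pairs. HAS2 is the main hyaluronan synthase of many mesenchymal cells. The Has2 arrays read 7.44, 7.51 and 7.54 at T0, 7.27, 7.21 and 6.05 at T1, and 6.30, 5.35 and 5.05 at T2. Replicates 1 and 2 of T1 were near the newborn level and replicate 3 was within the adult range. From T0 to T2 Has2 fell by 1.93 on the log2 scale (SE 0.36), a 3.81-fold difference with no overlap of arrays (limma adjusted p = 0.00162). This call held under all 26 alternatives run for it. Among these, the mean of a gene's probe sets could not change the values of a gene with 1 probe set. Leaving out a T1, T3 or T4 array left this difference as it was and changed only its spread and adjustment. The steps from T0 to T1 (-0.65, adjusted p = 0.433) and from T1 to T2 (-1.27, adjusted p = 0.148) did not pass in limma, but the second passed without T2 replicate 1 (-1.64, adjusted p = 0.0445). Has2 then read 4.64, 5.20 and 5.31 at T3 and 5.43, 5.25 and 4.82 at T4. The difference from T2 to T4 was -0.40, with a 95% interval from -1.17 to 0.37. Muscle markers (5 of 5) and tendon markers (3 of 3) also fell from T0 to T2, and their part in the Has2 result was not tested.

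Has1 and Has3, the other synthases, passed in none of the 10 stage pairs. Has1 read 5.40, 5.26 and 4.50 at T0 and 5.65, 4.81 and 4.65 at T4, and its 9 arrays of T1 to T3 lay between 3.59 and 4.65. Its T4 arrays were all above its T3 arrays, by 0.84 on average (SE 0.35, limma adjusted p = 0.0657). That difference passed without T4 replicate 3 (1.03, adjusted p = 0.0489), and the like difference from T2 to T4 passed without T0 replicate 3, T2 replicate 1, T3 replicate 1 or T4 replicate 3 (adjusted p from 0.0347 to 0.0455). Has3 ranged from 4.49 to 5.55 over all 15 arrays. Its T3 arrays, at 5.44, 5.55 and 4.98, were all above its T2 arrays, at 4.51, 4.84 and 4.92, and the difference of 0.57 did not pass (limma adjusted p = 0.196). The array medians ranged from 4.94 to 5.28, so all Has1 arrays of T1 to T3 lay below them, and Has3 lay around them.

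Cd44 encodes the cell-surface hyaluronan receptor, which leukocytes carry as well as chondrocytes. Its stage means spanned less than those of the other called genes. The arrays read 6.90, 6.84 and 6.79 at T0, 6.68, 6.53 and 6.59 at T1, and 6.98, 6.91 and 7.13 at T2. The adult arrays were above all others of these stages. The difference of 0.41 from T1 to T2 did not pass (SE 0.17, limma adjusted p = 0.468). Cd44 read 6.40, 6.72 and 6.72 at T3 and 6.51, 6.30 and 6.17 at T4. It fell by 0.68 from T2 to T4, a 1.60-fold difference (limma adjusted p = 0.00385), and by 0.52 from T0 to T4 (limma adjusted p = 0.0188). The first of these calls ended with quantile normalization (-0.04, adjusted p = 0.897) and turned with cyclic loess (0.20, adjusted p = 0.43). No alternative is given for the second call. The Cd44 difference from T0 to T2 was 0.10 with quantile normalization and 0.13 with cyclic loess, so neither gave a fall from T0 to T4. Macrophage markers fell from T2 to T4 as well, in 6 of 6, with array means from 7.35 to 7.78 at T2 and from 5.13 to 6.42 at T4, as did 3 of 7 neutrophil and myeloid markers. Their part in the Cd44 result was not tested. Between T0 and T2, where neutrophil and myeloid markers rose in 6 of 7 and their mean went from 5.73 to 10.58, the Cd44 difference was 0.16 (95% interval from -0.20 to 0.53).

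Hyal1 was the one gene of the 9 that was called higher in youth than in the newborn. HYAL1 is a lysosomal hyaluronidase that cuts hyaluronan to small fragments. Its arrays read 5.56, 5.49 and 5.64 at T0 and 6.85, 6.86 and 6.88 at T1. The youth arrays were all above the newborn arrays, by 1.30 on the log2 scale (SE 0.32) or 2.46-fold (limma adjusted p = 0.02). This call ended without any 1 of the 6 arrays compared (1.26 to 1.34, adjusted p from 0.0523 to 0.0798), with quantile normalization (1.13, adjusted p = 0.0737) and with T1 replicate 3 placed in T2 (1.29, adjusted p = 0.0987). At T2, replicate 1 read 6.75, near the youth level, and the others read 5.64 and 5.62, near the newborn level. The arrays read 4.75, 5.19 and 5.64 at T3 and 4.10, 4.98 and 4.17 at T4. From T2 to T4 Hyal1 fell by 1.58, or 3.00-fold (limma adjusted p = 0.00101), and cyclic loess gave -1.63 (adjusted p = 0.00173). The step from T3 to T4 was -0.78 (limma adjusted p = 0.0639), and it passed without T2 replicate 1 (adjusted p = 0.0314), T3 replicate 1 (adjusted p = 0.041) or T4 replicate 2 (-1.06, adjusted p = 0.0163). Beside the rise from T0 to T1, 3 of 3 erythroid, 6 of 7 neutrophil and myeloid, 3 of 3 B cell, 4 of 5 osteoblast and 2 of 6 macrophage markers rose. So did 2 of 4 T cell, 2 of 4 adipocyte and 2 of 4 cell cycle markers, while 5 of 5 skeletal muscle and 1 of 3 tendon markers fell. The range of the macrophage mean was 6.69 to 7.01 at T0 and 7.54 to 7.73 at T1. The part of these markers in the Hyal1 result was not tested.

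Hyal2 encodes a membrane-anchored hyaluronidase that cuts the long chain to intermediate fragments. It read 5.98, 6.41 and 6.56 at T0, 6.58, 6.29 and 6.32 at T1, and 6.21, 5.38 and 5.89 at T2. It read 5.15, 4.87 and 5.79 at T3 and 5.87, 5.14 and 5.33 at T4. All newborn and youth arrays were above all arrays of T3 and T4, and the adult arrays overlapped with each later stage. No successive step passed, and 4 of the 6 wider spans did: -1.04 from T0 to T3 (adjusted p = 0.0209), -1.12 from T1 to T3 (adjusted p = 0.0431), -0.87 from T0 to T4 (adjusted p = 0.0196) and -0.95 from T1 to T4 (adjusted p = 0.0126, limma throughout). The others were -0.49 from T0 to T2 (limma adjusted p = 0.394) and -0.38 from T2 to T4 (limma adjusted p = 0.272). The 4 called spans were not followed under the alternatives.

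Hyal2 and Hyal1 are neighbouring coding genes on rat chromosome 8, with Naa80 and then Hyal3 following. Their 250 bases before the start are shown because Hyal1 was called from T0 to T1 and Hyal2 was not. They are chr8:117129061-117129310 for Hyal1 and chr8:117121552-117121801 for Hyal2, both on the plus strand of GRCr8, with capitals as above.
Hyal1: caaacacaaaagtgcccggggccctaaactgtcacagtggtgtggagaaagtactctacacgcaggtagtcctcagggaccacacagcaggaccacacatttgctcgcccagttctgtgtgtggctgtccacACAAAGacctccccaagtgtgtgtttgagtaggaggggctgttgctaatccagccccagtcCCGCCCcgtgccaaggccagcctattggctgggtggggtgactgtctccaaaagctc
Hyal2: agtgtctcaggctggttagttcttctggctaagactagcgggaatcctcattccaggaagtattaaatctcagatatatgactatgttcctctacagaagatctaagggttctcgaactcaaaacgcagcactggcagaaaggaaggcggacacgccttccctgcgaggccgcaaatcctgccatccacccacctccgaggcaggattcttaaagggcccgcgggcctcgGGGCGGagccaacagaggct
Each stretch held 1 GC box match, at 57 to 52 bases before the start in Hyal1 and at 20 to 15 in Hyal2, and Hyal1 also held ACAAAG once, at 118 to 113. Hyal1 minus Hyal2 within an array, a pair chosen after the values were seen, was -0.75 at T0, 0.47 at T1 and 0.18 at T2. The exact permutation p was 0.00714 (0.00952 adjusted over 4 pairs), and it cannot serve as a test, because the pair was picked from the same values. Without any 1 of the T0 arrays the adjusted p was 0.0571 (exact permutation).

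The 9 genes were then counted in each stage comparison beside the whole array. The comparisons share arrays, so their counts are not independent of one another. From T0 to T1, 1 of 9 rose (Hyal1) and 1 fell (Vcan), where 7.56% of all probe sets were called. From T1 to T2, none of 9 passed in limma, 4 had an unadjusted p under 0.05, and 0.891% of probe sets were called. With array weights in limma the same comparison called 5 of 9. The weights came from an estimate that stopped before it converged. Shares of all probe sets called are not given for the weighted fit or for fits without 1 array, so those counts cannot be read against the array. From T2 to T3, 1 of 9 fell (Hapln1) beside 0.15% of probe sets, with 6 of 9 at an unadjusted p under 0.05, and 3 were called without T3 replicate 3 (Acan and Vcan among them). From T3 to T4, 3 of 9 fell (Acan, Hapln1 and Vcan) and none rose, beside 42.2% of probe sets, so the share of members called was no larger than that of the array.

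Across wider spans, all called members fell. From T0 to T2, 4 of 9 fell (Acan, Hapln1, Vcan and Has2) beside 12.7% of probe sets called, and the median difference was -0.85 over the 9 genes and -0.01 over all probe sets. From T0 to T3, 5 of 9 fell beside 17.9%. From T1 to T3, 5 of 9 fell beside 4.26%, with a median of -1.12 against 0.13 over all probe sets. The spans that end in T4 called most of the array, and the members' counts are read against that: 5 of 9 from T2 to T4 beside 56.5%, 7 of 9 from T0 to T4 beside 54.9%, and 6 of 9 from T1 to T4 beside 54.4%. In all 3 of these spans every called member fell, while 27.2% of probe sets rose and 29.4% fell from T2 to T4. Calls from T0 to T3, T0 to T4, T1 to T3 and T1 to T4 were not followed under the alternatives. Cd44, counted from T0 to T4, fell neither from T0 to T2 nor from T2 to T4 with cyclic loess. In the order of each gene's stage means, 5 of 36 neighbouring pairs differed: T3 above T4 for Acan, T2 above T3 and T3 above T4 for Hapln1, and T0 above T1 and T3 above T4 for Vcan. The order of stages for the other 6 genes had no neighbours that differed.

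**Figure D4:**
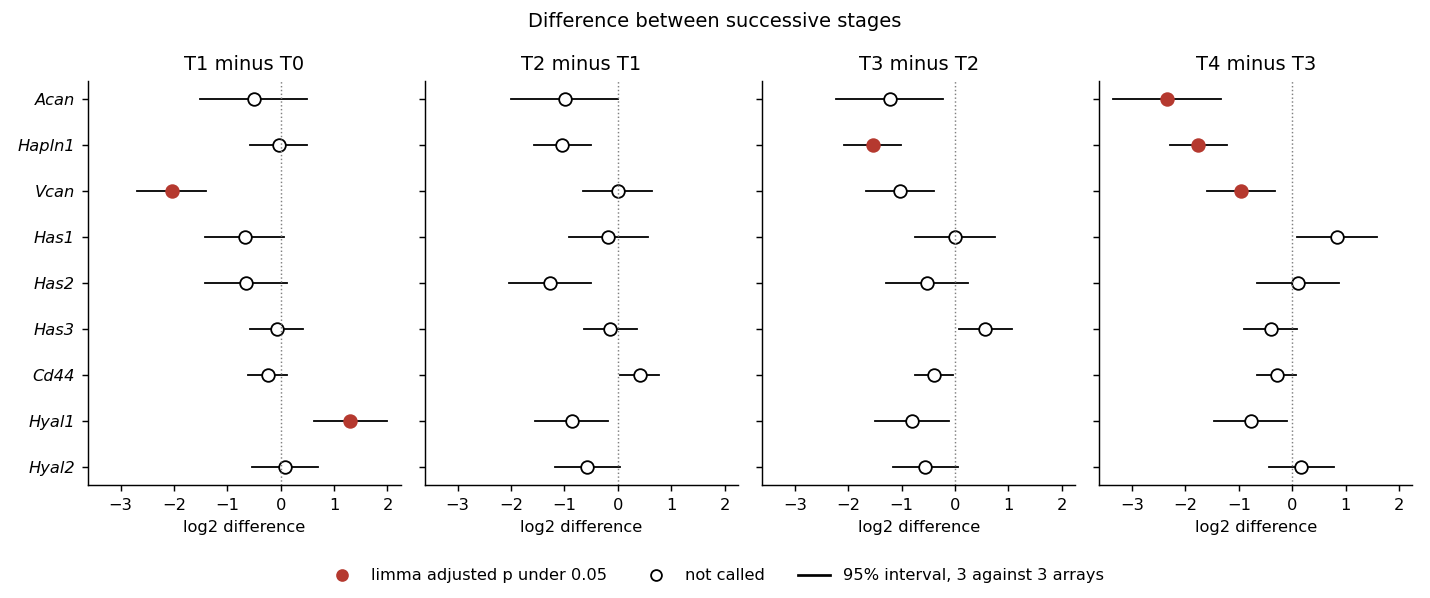
Difference between successive stages for the 9 genes, on the log2 scale, with limma's 95% interval from 3 against 3 arrays. Filled points were called at an adjusted p under 0.05. Vcan and Hyal1 are called from T0 to T1, no gene from T1 to T2, Hapln1 from T2 to T3, and Acan, Hapln1 and Vcan from T3 to T4.

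Other genes of the pathway were taken from a list of 44, of which 36 had a single-symbol probe set. The others were not analysed here. Of the 36, 29 passed the F test, beside 60.1% of all probe sets. Between T0 and T1, 1 rose and 3 fell, beside 7.56% called on the array. Cemip, a hyaluronan-degrading protein, rose by 1.58 (SE 0.27, limma adjusted p = 0.00159), from 5.44 ± 0.31 to 7.01 ± 0.29 (SD, n = 3), the same step at which Hyal1 rose. Lyve1, a hyaluronan receptor of lymphatic vessels and some macrophages, fell by 1.72 (limma adjusted p = 0.00363), and Ugdh, which makes the UDP-glucuronate that the synthases use, fell by 1.14 (limma adjusted p = 0.0114, and 0.0507 without T1 replicate 3). This count of 4 ran from 2, without T1 replicate 3, to 8 when 1 array was left out. None of the 36 passed from T1 to T2 or from T2 to T3 in limma, where 5 and 7 had an unadjusted p under 0.05. From T2 to T3, 4 were called without T3 replicate 3 and 2 without T4 replicate 1. Array weights called 5 from T1 to T2 and 10 from T2 to T3. The share of all probe sets called is not given for these fits. From T1 to T2, 1 was called without T2 replicate 1, T3 replicate 2 or T4 replicate 1.

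From T0 to T2, 1 of the 36 rose and 9 fell, beside 12.7% of all probe sets called. Lyve1 fell by 2.16 (limma adjusted p = 0.000311), Pgm3, an enzyme of UDP-N-acetylglucosamine synthesis, by 1.42 (limma adjusted p = 0.000793), and Adamts1, a protease that can cut aggrecan and versican, by 1.64 (limma adjusted p = 0.00142). UDP-sugar genes fell in 3 of 6 and rose in none, beside the fall of Has2. From T2 to T4, 10 rose and 15 fell, where 27.2% of all probe sets rose and 29.4% fell, and the counts by group that follow stand against these shares. Of the UDP-sugar genes 5 of 6 fell (2 with cyclic loess), with Ugp2 by 2.38 (limma adjusted p = 4.4e-05) and Ugdh by 1.71 (limma adjusted p = 0.000143). With cyclic loess these differences were -0.89 and -0.69, both still called. Of 7 hyaluronan breakdown genes 4 fell, among them Cemip2, a cell-surface hyaluronidase, by 1.40 (limma adjusted p = 0.0001), or by 0.58 with cyclic loess (difference -0.58), and of 4 receptors 3 fell. Proteases and their inhibitor fell in 3 of 8 and rose in 1. The other lecticans and link proteins rose in 4 of 5 (Bcan, Ncan, Hapln2 and Hapln4, by 1.09 to 1.17), opposite to Acan and Hapln1, and in 2 of 5 with cyclic loess. The hyaluronan-binding matrix genes rose in 5 of 6, in 4 with each array centred on its median, in 3 with quantile normalization and in 1 with cyclic loess. The T2 means of these 6 genes lay between 3.76 and 4.57, below the array medians. Those of Bcan, Ncan, Hapln2 and Hapln4 lay between 4.46 (Hapln4) and 4.99 (Bcan). The T2 array medians were 4.97 to 5.07, so Bcan lay around them and the others below, and these levels are hard to read. The part of the narrower T4 signal range in these rises was not tested. Bcan, Ncan, Hapln2 and Hapln4 are known from nervous tissue, and the Hapln3 gene beside Acan was called in no stage pair. From T3 to T4, 5 of the 36 rose and 12 fell, where 16.5% of all probe sets rose and 25.8% fell. The smallest p-values were those of Ugp2 (-1.83), Adamts9 (-1.46) and Cemip2 (-1.12, limma adjusted p from 0.000678 to 0.00118), and other called genes had larger falls than Cemip2. With cyclic loess Ugp2, Adamts9 and Cemip2 were at -0.64, -0.68 and -0.47, all called, and Cemip2 was not called when only the arrays compared were fitted (adjusted p = 0.0536). This count of 17 fell to 9 with cyclic loess and to 2 when only the arrays compared were fitted, and the count of 25 from T2 to T4 fell to 14 and 22.

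**Figure D5:**
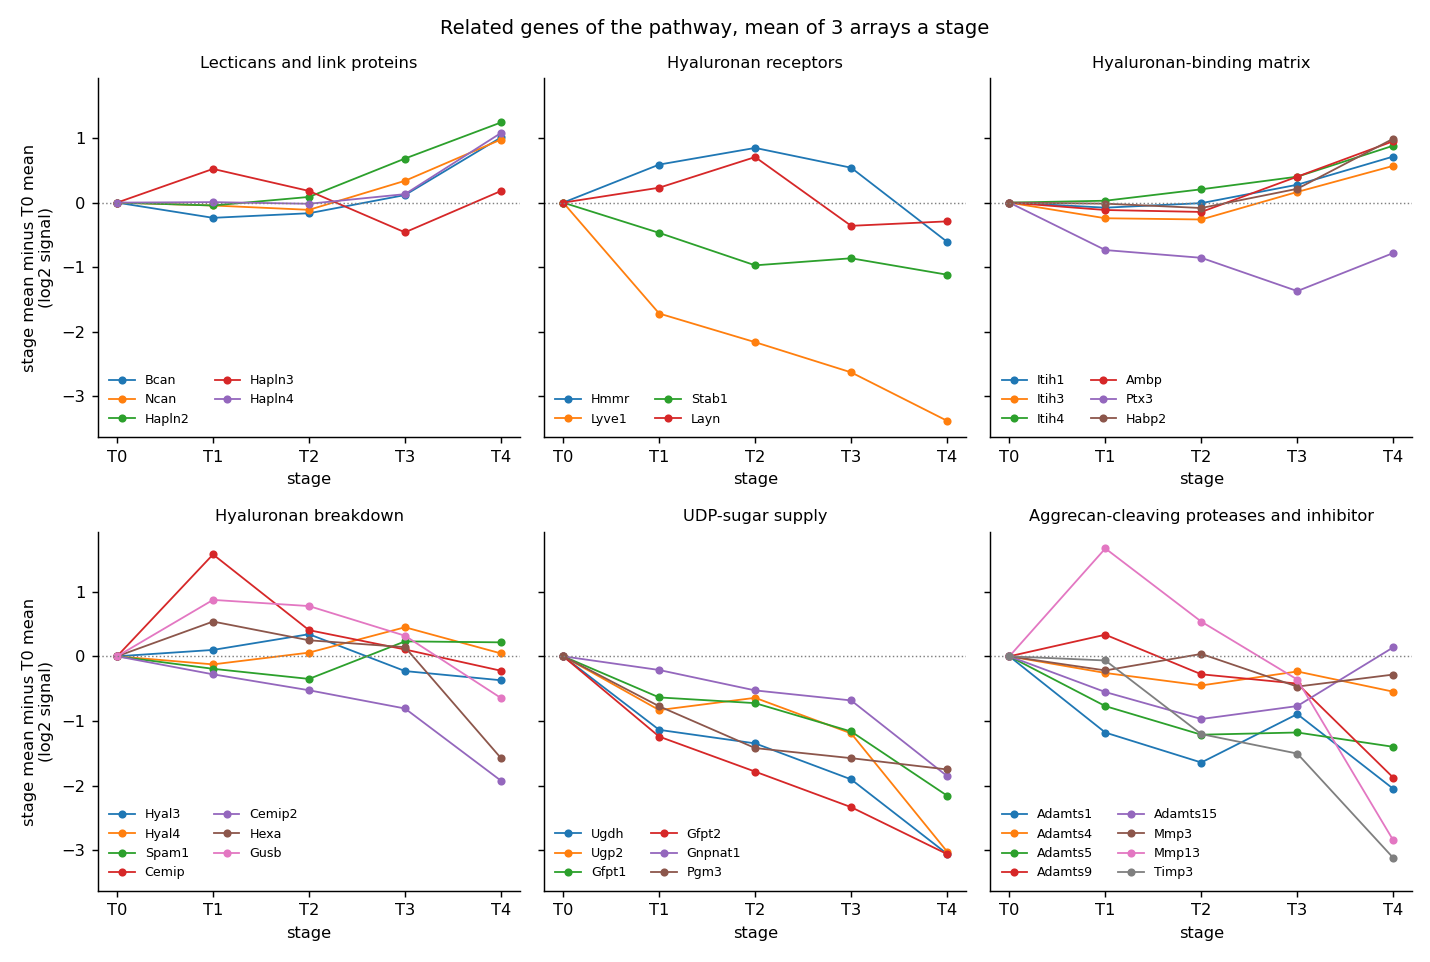
Stage mean minus the T0 mean, on the log2 scale, for 36 related genes in 6 groups, each point the mean of 3 arrays. All 6 UDP-sugar genes are lower at T2 than at T0, Lyve1 falls at T1, Cemip is raised at T1, and Bcan, Ncan, Hapln2 and Hapln4 are higher at T4 than at T2.

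The genes whose course was most like that of a member were ranked by the root mean square difference of log2 signals over 15 arrays, after each gene was centred on its own mean. Nearest to Acan of 17474 genes were Bgn (0.35), Ogn (0.37), Fmod (0.39) and Cd81 (0.43), against a median of 1.90 over all genes. Bgn, Ogn and Fmod encode small leucine-rich proteoglycans of the matrix. Hapln1 ranked 18 for Acan, at 0.54, and Vcan ranked 397. Nearest to Hapln1 were Sdc2 (0.39), Matn3 (0.47), Col11a1 (0.47) and Cnmd (0.47), of which the last 3 are cartilage matrix genes and stand among the cartilage markers. Nearest to Vcan were Prkaca (0.36), Tgfbi (0.38), Prepl (0.40) and Igf2r (0.40), with Acan at rank 1994 and Hapln1 at rank 1643. Nearest to Cd44 were Cpb2 (0.14), Tfe3 (0.15), Armc6 (0.15) and Camk2g (0.15), against a median of 0.55 over all genes. Because Cd44 changed little, this measure favours genes that also changed little. Cpb2 had stage means from 3.29 to 3.70, below every array median. Over the 9 arrays of T0 to T2 alone, the nearest 4 to Acan ranked 133 (Cd81) to 1305 (Ogn), those to Hapln1 69 (Matn3) to 1239 (Col11a1), those to Vcan 36 (Prkaca) to 115 (Tgfbi), and those to Cd44 24 (Camk2g) to 1141 (Tfe3). Over these arrays Hapln1 ranked 185 for Acan and Vcan 9835.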

How the data were processed

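Total RNA of 15 rat knee cartilage samples was measured on Affymetrix RaGene 2.0 ST arrays. The deposited table holds log2 signals of 36685 probe sets, which the authors made with RMA (per the submitters' processing notes), a method that subtracts background, gives all arrays like probe distributions and summarises probes. A shift common to most genes would therefore be reduced. Not given in the sources used here are the software version and library file. Of the columns, 0 belonged to no sample. No pair of arrays held identical values. The number of arrays limits the precision.

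Stages were taken from the labels. Probe sets with 1 gene symbol (18511, with 575 carrying several) were named from the platform annotation. With limma 3.58.1 (R 4.3.3), lmFit and eBayes estimated 1 mean for each stage from all 15 arrays together, with no filter and no further normalization, and adjusted by Benjamini-Hochberg over all probe sets within a comparison. Within-array differences of a pair of genes were tested by exact permutation over T0 to T2 in Python 3.11.15. Both procedures were tested on simulated data. Promoters came from a RefSeq table of GRCr8, which held 7 of the 9 genes.

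The text names all 9 genes, up to 3 called genes of the related list with the smallest p in each comparison, and the 4 genes with the nearest course to each of 4 members, apart from LOC and RGD symbols and those of olfactory receptors (Olr), vomeronasal receptors (Vom), Mir and Snor genes. Hapln3 and the other lecticans and link proteins that rose were named after their values were seen. Alternatives were quantile and cyclic loess normalization, centring, array weights, other sets of samples, the other stage for T1 replicate 3, a replicate block, a filter on dim probe sets, the mean of a gene's probe sets, another variance prior, and each array left out. The members, gene lists, tests and alternatives were chosen with earlier results of these data known.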

Additional observations from a re-analysis of the deposited data

How the results depend on the processing

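Of 54 member differences in 6 comparisons, 15 were called, and 6 of these stayed called under every alternative run: Acan, Hapln1 and Hyal1 from T2 to T4, Vcan from T0 to T1 and from T0 to T2, and Has2 from T0 to T2. Cyclic loess turned Vcan from T3 to T4 to 0.28 and Cd44 from T2 to T4 to 0.20, and 27 uncalled differences changed sign under some alternative. Members called from T0 to T1 numbered 1 with quantile normalization and with T1 replicate 3 placed in T2. From T1 to T2 they numbered 5 with array weights and 1 with only the arrays compared, without the T4 arrays, or with only probe sets above the median signal. From T2 to T3 they numbered 7 with array weights and 0 with quantile normalization, cyclic loess, only the arrays compared, or a trended robust prior. From T3 to T4 they numbered 1 with cyclic loess and with only the arrays compared, and from T2 to T4 they numbered 3 with cyclic loess. Neighbouring stages that differed (alternatives for this count, and those for Hyal1 to Hyal2, were chosen after seeing the data) numbered 1 with cyclic loess and 12 with array weights, which gave the T4 arrays weights of 0.10, 0.33 and 4.59 in an estimate that stopped before it converged. No share of all probe sets called is given for the fits with array weights. Leaving out 1 array gave 1 to 2 members called from T0 to T1, 0 to 1 from T1 to T2 and 0 to 3 from T2 to T3. The stage means of the log ratio of Hapln1 to Acan spanned 0.70 over all 5 stages, 0.31 with quantile normalization and 0.43 to 0.55 with 1 array left out, that of Vcan to Acan 1.29 to 1.66, and that of Hyal1 to Hyal2 1.14 to 1.39. Same-numbered arrays of different stages showed no common deviation (mean correlation -0.017 over 30 pairs, and 4 of 15 arrays matched their own number best). With 3 arrays a stage this does not exclude a pairing, and the main fit used none. With the replicate number as a block, members called numbered 2, 0, 1 and 3 in the 4 successive steps, and 3 from T0 to T2, where Acan was lost (adjusted p = 0.0748). Centring the arrays moved the median difference of all probe sets from T2 to T4 from 0.07 to -0.12. The cause of these changes was not tested.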
